A study of Oryctolagus cuniculus with 8 samples.

Results

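The 200 rows described here are the most abundant rows of the rabbit retina table that are not annotated as protein-coding. They were taken from the 6373 rows of 25666 whose biotype is not protein-coding, selected on the mean FPKM over 8 libraries, of which the highest 200 were kept. FPKM is the number of sequenced fragments on a row, scaled for the length of the row and the depth of the library. Each row is named by its rank, since 177 of the 200 carry no symbol, and by the length that was recovered from the steps of its FPKM values. The mean level chose the rows and is therefore given as a description only. At the limit of the ranking, rank 199 had a mean of 26.3 FPKM and rank 200 a mean of 26.2 FPKM, while the rows at ranks 201 and 202, which were left out, had means of 26.2 and 25.9 FPKM.

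RNA was sequenced from 8 retinas of male, wild-type Chinchilla rabbits about 10 months old, with 2 retinas per diet after 6 months of feeding. Standard chow was fed to the ND group. Added to the food were lard (10%) and cholesterol (0.5%) in the HFD group, sucrose (40%) in the HSD group, and in the HFSD group the same lard and cholesterol together with sucrose (35%). The labels do not say whether the 2 retinas of a diet came from separate animals, so that p values measure the spread between these retinas only. The diets were compared to learn what fat and sucrose, alone or together, change in the retina. RNA of whole retina was measured, in which fewer cells of a type and less RNA per cell cannot be told apart.

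Rows outside the protein-coding class hold several kinds of RNA. Ribosomal and transfer RNAs of the mitochondrion serve the translation of the proteins that the mitochondrial genome encodes. Small nucleolar RNAs (snoRNAs) guide chemical modification of other RNAs and are mostly cut from introns of host transcripts, small nuclear RNAs (snRNAs) act in the processing of messenger RNA precursors, most of them in splicing, and microRNAs (miRNAs) are short RNAs cut from hairpin precursors that repress messenger RNAs. Pseudogenes are copies of genes that have lost their coding capacity, and processed pseudogenes arose by reverse transcription of a messenger RNA.

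The recovered depths by which FPKM was scaled ran from 15764577 to 22785832. ND replicate 2 and HFD replicate 1 stood apart, with summed FPKM over all rows of 611233 and 653354 against 564389 to 577406 in the other 6 libraries. In these 2 alone the fragments summed over all rows, 18161242 and 20430282, exceeded the depth, which was 17706804 and 19970643. HSD replicate 2 had a summed FPKM of 338 over the muscle marker rows, while no other library exceeded 1.01. Blood markers (2 genes found) ranged from 0.290 to 82.2 FPKM, with the highest sums in ND replicate 1, HFD replicate 1 and HSD replicate 2, and endothelial markers (3 genes) were 30.8 and 21.6 FPKM in ND replicate 1 and HFD replicate 1 and 0.553 to 7.43 FPKM in the others. Marker rows of retinal neurons were present in every library, and those of bipolar cells summed to 204 to 312 FPKM with all 4 genes above 0. Markers of the pigment epithelium summed to 180 to 288 FPKM in ND and to 18.5 to 65.5 FPKM in the other diets, with all 5 genes above 0 in each library.

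Only 31 of the 200 rows carry the biotype of a noncoding RNA. The annotation gives no biotype for 108 rows, and 61 rows are labelled as pseudogenes (49 pseudogene, 12 processed_pseudogene). The remaining classes are 13 snoRNAs, 10 miRNAs, 4 mitochondrial tRNAs (Mt_tRNA), 2 mitochondrial rRNAs (Mt_rRNA) and 2 snRNAs. The name noncoding RNA is thus given by the table for a minority of the rows, and the rest are called here by their biotype label.

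Classes entered the 200 in unequal shares, which describe the rows of the table and not the RNA of the retina. How far the library kit and the discarding of reads that mapped to several places shaped these shares was not tested. Both Mt_rRNA rows of the table and 4 of 22 Mt_tRNA rows were included, against 13 of 937 snoRNA, 10 of 588 miRNA and 2 of 994 snRNA rows. None of the 516 rRNA rows and none of the 316 misc_RNA rows ranked high enough. The highest rRNA row stood at rank 207 with a mean of 25.3 FPKM (8.75 to 50.2 over the libraries), and the highest misc_RNA row at rank 391 with a mean of 12.5 FPKM (7.47 to 16.4).

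A symbol was given for 23 rows. Of these, 15 are numbers in the style of the Rfam family database, printed here as the table gives them, and all 13 snoRNAs and both snRNAs are named in this way. The other 8 were found in the RefSeq gene table (assembly mOryCun1.1), 5 as miRNAs. YBX1 (a nucleic acid-binding protein with a cold-shock domain), MGAT1 (a Golgi enzyme of N-glycan synthesis) and RBM12 (an RNA-binding protein) are labelled pseudogene in the table and protein_coding in RefSeq, and each is the only row of that name. No member carried a symbol of the long noncoding RNAs looked for, such as MALAT1, NEAT1, MEG3, MIAT or GAS5, and these were not analysed here.

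The levels fell steeply with rank. Rank 1, a row of 880 bases without biotype, had 4682 and 5592 FPKM with ND, 5686 and 4081 with HFD, 4306 and 4186 with HSD, and 4357 and 4047 with HFSD. The highest row alone held 16.1% to 20.2% of the summed FPKM of the 200 rows, the highest 3 held 28.3% to 33.4%, the highest 10 held 45.3% to 48.9%, and the highest 50 held 69.9% to 74.0%. All 200 rows together summed to 24103 to 29829 FPKM per library, or 4.27% to 4.57% of the FPKM of all rows.

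**Figure D1:**
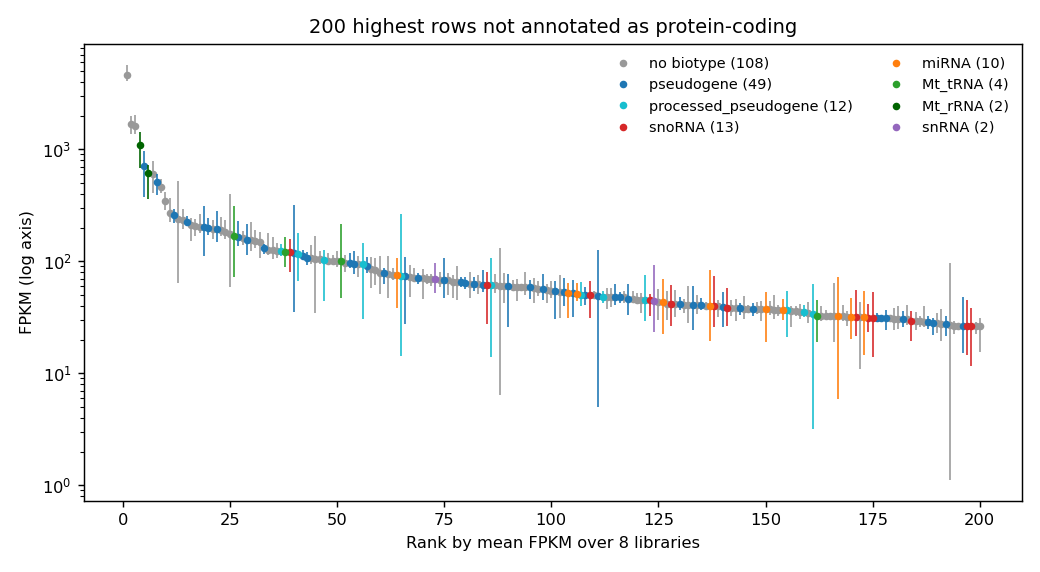
FPKM of the 200 rows (vertical axis, log scale) against their rank (horizontal axis). Points are means over 8 libraries, coloured by biotype, and lines run from the lowest to the highest library. The mean falls from 4617 FPKM at rank 1 to 26.2 FPKM at rank 200, and a few long lines mark rows that differ strongly between libraries.

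Rows without biotype and pseudogene rows filled most of the top. Of the 10 highest rows, 6 had no biotype, 2 were pseudogenes and 2 were the Mt_rRNAs. Rank 2 (2088 bases, no biotype) ranged from 1381 to 1989 FPKM and rank 3 (1292 bases, no biotype) from 1360 to 2040 FPKM. The 108 rows without biotype were 215 to 17954 bases long, with a median of 1303.

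The rows differed in how steady they were over the 8 libraries. The highest library exceeded the lowest by less than 1.5 times in 89 of 200 rows, and the median ratio of highest to lowest was 1.55. RBM12 was among the steadiest, with 32.6 and 31.6 FPKM with ND, 29.0 and 30.9 with HFD, 32.7 and 32.9 with HSD, and 30.6 and 28.9 with HFSD. YBX1 stayed between 56.7 and 71.7 FPKM and MGAT1 between 54.8 and 71.8 FPKM. The median ratio was 1.48 for rows without biotype and 1.49 for pseudogenes, while it was 2.33 for snoRNAs, 2.66 for processed pseudogenes, 2.78 for miRNAs and 3.35 for Mt_tRNAs.

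The short classes rest on few fragments. The miRNA rows, 63 to 95 bases long, held 10 to 164 fragments per library, and the snoRNA rows, 62 to 149 bases long, held 16 to 494. On such lengths a single fragment is worth up to 1.01 FPKM (miRNA) and 1.02 FPKM (snoRNA), so their values move in coarse steps, whereas a row without biotype held up to 99921 fragments. In 20 of the 200 rows at least 1 library had fewer than 50 fragments, and 16 of these were snoRNAs or miRNAs. PCR copies were not marked, so that limits drawn from fragments cover counting error only.

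The summed FPKM of each biotype was compared over the 4 diets. The test was run on the 6 classes with at least 3 rows, and none passed. The smallest p that 105 assignments can give is 0.0095, and a class alone at that p has an adjusted p of 0.0571, so that a single class could not have passed. For snoRNAs the sums were 613 and 498 FPKM in the ND retinas, 470 and 510 in the HFD retinas, 610 and 616 in the HSD retinas, and 672 and 590 in the HFSD retinas (exact permutation test over 105 assignments, p=0.248, adjusted p=0.495 by Benjamini-Hochberg over 6 classes). The snoRNA sums of both sucrose diets were above both HFD sums, but ND replicate 1 lay among them.

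The miRNA sums were nearly level, with 430 and 425 FPKM with ND, 432 and 457 with HFD, 438 and 445 with HSD, and 437 and 391 with HFSD (exact permutation p=0.505, adjusted p=0.757). Pseudogene sums lay between 4549 and 5388 FPKM (exact permutation p=0.152, adjusted p=0.495). Rows without biotype summed to 15477 to 15983 FPKM with sucrose and to 16328 to 19721 FPKM without, so that the libraries did not overlap by sucrose, yet the test over the 4 diets gave an exact permutation p of 0.190 (adjusted p=0.495). The 2 highest of these sums, 18712 and 19721, belonged to ND replicate 2 and HFD replicate 1, whose FPKM was high over all rows.

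Processed pseudogenes summed to 667 to 1042 FPKM (exact permutation p=0.733, adjusted p=0.829), and both retinas of HFSD, at 728 and 1042 FPKM, spanned most of this range. The 2 snRNA rows summed to 83.0 to 158 FPKM. Neither snRNA nor Mt_rRNA, with 2 rows each, was tested in this way.

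**Figure D2:**
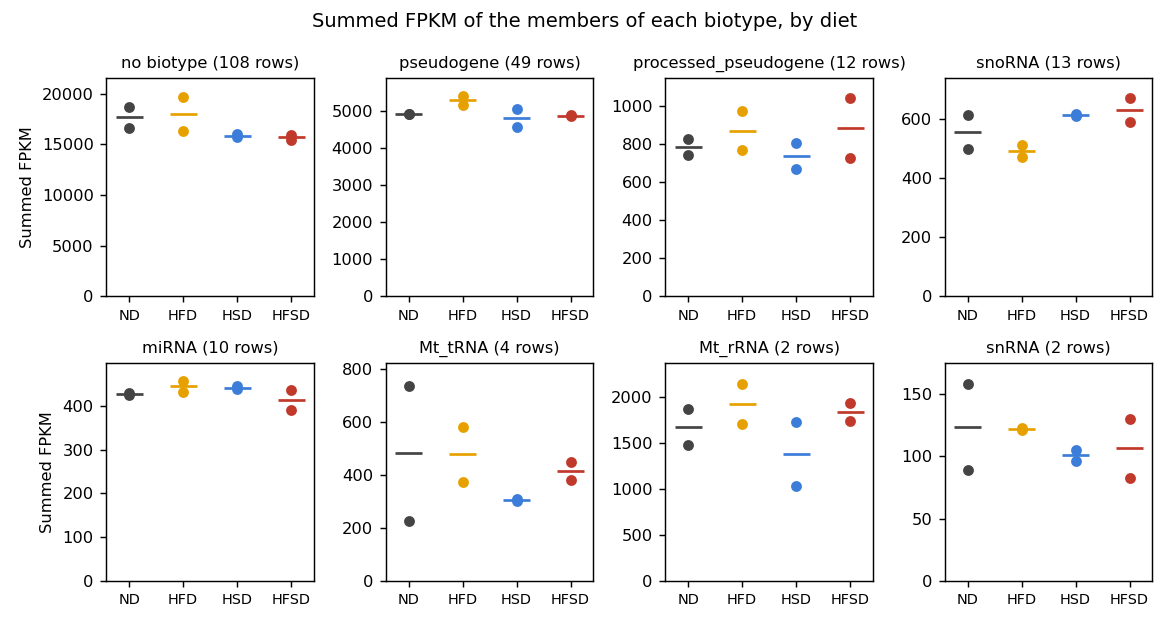
Summed FPKM of the rows of each biotype (vertical axes, starting at 0) for the 2 libraries of each diet (points), with the mean of the 2 as a horizontal line. The retinas of a diet are often as far apart as the diets, and in the Mt_tRNA panel the 2 ND retinas lie at 227 and 737 FPKM.

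The Mt_tRNA rows varied mainly between retinas of the same diet. Their sums were 227 and 737 FPKM with ND, 583 and 374 with HFD, 300 and 309 with HSD, and 448 and 380 with HFSD (exact permutation p=0.829, adjusted p=0.829). The highest of these rows, rank 26 with 73 bases, had 72.1 and 311 FPKM in the 2 ND retinas and 281 and 162 FPKM in the HFD retinas. ND replicate 2 and HFD replicate 1 were the highest 2 libraries in 2 of the 4 rows (ranks 26 and 51), and their part in the ND difference was not tested.

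The 2 Mt_rRNA rows are 957 bases (rank 4) and 1579 bases (rank 6) long and rest on at least 8993 fragments per library. Their sum was 1871 and 1477 FPKM in the ND retinas, 2141 and 1713 in the HFD retinas, 1037 and 1733 in the HSD retinas, and 1740 and 1932 in the HFSD retinas. HSD replicate 1 was lowest and HFD replicate 1 highest. Both HFSD sums lay above both HSD sums, and the other pairs of diets overlapped. The shorter row exceeded the longer one 1.38 to 2.23 times. The 13 rows of proteins encoded by the mitochondrion summed to 34728 to 49516 FPKM, and the separate Mt_rRNA sum was equal to 2.95% to 5.39% of that value.

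Each diet was then compared with ND row by row, in limma on log2(FPKM + 1) over the 14676 rows of any biotype that reached 1 FPKM in 2 or more libraries. All 200 members passed this filter, which their mean level makes likely by construction. The 3 comparisons share the ND retinas. Fold changes are on the log2(FPKM + 1) scale, which understates the change of low rows, and Benjamini-Hochberg adjustment covered the 14676 rows.

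In HFD no member had an adjusted p under 0.05 with limma, against 0.00681% of all rows, and voom on recovered fragments gave 0 as well. Before adjustment 11 members (5.5%) had a p under 0.05, against 4.16% of all rows. The HFD and ND retinas did not overlap in 49 members (24.5%), against 26.1% of all rows, with 28 members higher and 21 lower against 12.8% and 13.3% of all rows. The median log2 fold change was 0.04 over the members and 0.01 over all rows, and -0.02 and -0.05 with equal summed FPKM of protein-coding rows. Over the members it was -0.03 without HFD replicate 1.

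The snoRNAs were lower in HFD in 8 of 13 rows, with a median log2 fold change of -0.20. RF00278 had 66.7 and 58.9 FPKM with ND, 42.1 and 31.0 with HFD, 56.1 and 47.9 with HSD, and 45.2 and 52.4 with HFSD. Both HFD retinas lay below both ND retinas and below the other diets, at a log2 fold change of -0.78 against ND (standard error 0.173, limma adjusted p=0.890). RF00412, the most abundant snoRNA, had 102 and 135 FPKM in ND against 89.5 and 81.0 in HFD, a log2 fold change of -0.46 (standard error 0.152, limma adjusted p=0.999). It was -0.26 without ND replicate 2 and -0.66 without ND replicate 1.

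Of the 13 snoRNAs, 5 had an unadjusted p under 0.05 in HFD, against 4.16% of all rows, 4 lower (RF00412, RF00278, RF00136 and RF00342) and 1 higher, and none passed after adjustment. The one that was higher, RF00405, had 23.4 and 28.9 FPKM in ND against 35.5 and 41.8 in HFD, without overlap. In HSD 10 of 13 snoRNAs had a positive log2 fold change, with a median of 0.27, and 1 had an unadjusted p under 0.05, RF00136, which was lower (log2 fold change -0.69, standard error 0.290, limma adjusted p=0.743), against 6.68% of all rows. In HFSD 4 of 13 had an unadjusted p under 0.05, 3 higher and 1 lower, against 7.5% of all rows, and none was called in HSD or HFSD.

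In HSD 1 member was called, and it was lower than in ND, against 0.0477% of all rows. An unadjusted p under 0.05 was found for 14 members (7%), against 6.68% of all rows, and 67 members (33.5%) did not overlap with ND, against 38.2%. Of these 67, 30 were higher and 37 lower, against 19.5% and 18.7% of all rows. In HFSD 1 member was called, again lower, against 0.0204% of all rows. Here 21 members (10.5%) had an unadjusted p under 0.05, against 7.5%, and 72 (36%) did not overlap, against 41.1%. Of these 72, 34 were higher and 38 lower, against 21.2% and 19.9% of all rows. The median log2 fold change over the members was -0.03 in HSD and -0.01 in HFSD, and 0.00 over all rows in both. With equal summed FPKM of protein-coding rows it was 0.02 in HSD and 0.03 in HFSD, and 0.05 and 0.04 over all rows, and without ND replicate 2 it was 0.03 in HSD and 0.02 in HFSD. Voom gave 0.01 and 0.02.

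The row called was the same in both diets, rank 13, which has 448 bases and neither biotype nor symbol. It had 403 and 335 FPKM with ND, 517 and 344 with HFD, 75.2 and 85.1 with HSD, and 67.4 and 63.4 with HFSD. All retinas with sucrose lay far below all retinas without, and within the HSD and the HFSD group the 2 retinas were close. The values rest on 2655 to 4625 fragments without sucrose and on 448 to 688 with sucrose.

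For rank 13 the group means were 369±48.5 FPKM with ND, 430±122 with HFD, 80.2±7.04 with HSD and 65.4±2.84 with HFSD (mean±s.d. of 2 retinas). Against ND, the log2 fold change was -2.18 in HSD (standard error 0.203, limma adjusted p=0.0318) and -2.47 in HFSD (standard error 0.203, limma adjusted p=0.0247). In HFD it was 0.20 (standard error 0.203, limma adjusted p=0.999). Both calls were sensitive to the processing: under 18 alternatives the row was called in 8 for HSD and in 10 for HFSD, with adjusted p from 0.0208 to 0.232 and from 0.0113 to 0.183. Leaving out any single library of ND, HSD or HFSD took the adjusted p past 0.05, to 0.0735 to 0.232 for HSD and to 0.0675 to 0.183 for HFSD, with the log2 fold change at -2.05 or below each time.

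The 4 diets combine fat and sucrose, so that the libraries with sucrose (HSD and HFSD) were also compared with those without (ND and HFD). Of the members, 2 were called with limma and both were lower with sucrose, against 0.204% of all rows. An unadjusted p under 0.05 was found for 35 members (17.5%), against 16.4% of all rows. The 4 libraries with sucrose did not overlap with the 4 without in 26 members (13%), against 11.8% of all rows, with 12 members higher and 14 lower with sucrose, against 6% and 5.83% of all rows. Over all 200 rows 129 had a negative and 71 a positive log2 fold change, with a median of -0.05, against -0.01 over all rows tested. This balance depends on the scaling and on ND replicate 2 and HFD replicate 1. With equal summed FPKM of protein-coding rows 78 were negative and 122 positive (median 0.03, and 0.07 over all rows), and without those 2 libraries 93 were negative and 107 positive (median 0.02).

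Rank 13 was 5.49-fold lower with sucrose, at means of 72.8 and 400 FPKM. Its log2 fold change was -2.43 (standard error 0.143, limma adjusted p=0.00385). It was called under all 17 alternatives run, with adjusted p from 0.00179 to 0.0346, including the 8 fits that left out 1 library each and the fit without ND replicate 2 and HFD replicate 1.

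Rank 41, a processed pseudogene row of 999 bases, was the other. It had 151 and 144 FPKM in the ND retinas, 179 and 131 in the HFD retinas, 67.9 and 66.3 in the HSD retinas, and 88.7 and 95.03 in the HFSD retinas. All sucrose retinas lay below all others, by a log2 fold change of -0.93 (standard error 0.109, limma adjusted p=0.0421), and the row rests on 1070 fragments or more in each library. The adjusted p ran from 0.0260 to 0.168 over 17 alternatives, of which 7 kept the call. It was 0.0670 to 0.168 when any single library of ND, HSD or HFSD was left out, and without ND replicate 2 and HFD replicate 1 it was 0.0689. Against ND alone the log2 fold change was -1.12 in HSD (limma adjusted p=0.134) and -0.68 in HFSD (limma adjusted p=0.416).

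Cone markers summed to 763 to 929 FPKM with sucrose and to 448 to 593 without, over all 4 genes listed. Müller cell markers summed to 1589 to 1711 FPKM with sucrose and to 2350 to 3522 without, over all 3 genes listed. None of these genes was at 0 in any library. Both sums separated the same libraries as ranks 13 and 41, and their part in these differences was not tested.

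The remaining rows without overlap by sucrose did not pass the adjusted threshold. Rank 78 (733 bases, no biotype) had 79.3 and 89.9 FPKM with ND, 86.0 and 69.6 with HFD, 49.3 and 45.0 with HSD, and 48.8 and 54.9 with HFSD, a log2 fold change of -0.70 (standard error 0.0996, limma adjusted p=0.0590). Rank 8 (1122 bases, pseudogene) had 574 and 607 FPKM with ND, 571 and 598 with HFD, 391 and 438 with HSD, and 456 and 459 with HFSD, a log2 fold change of -0.43 (standard error 0.0885, limma adjusted p=0.122). These 2 rows rest on 569 fragments or more per library.

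**Figure D3:**
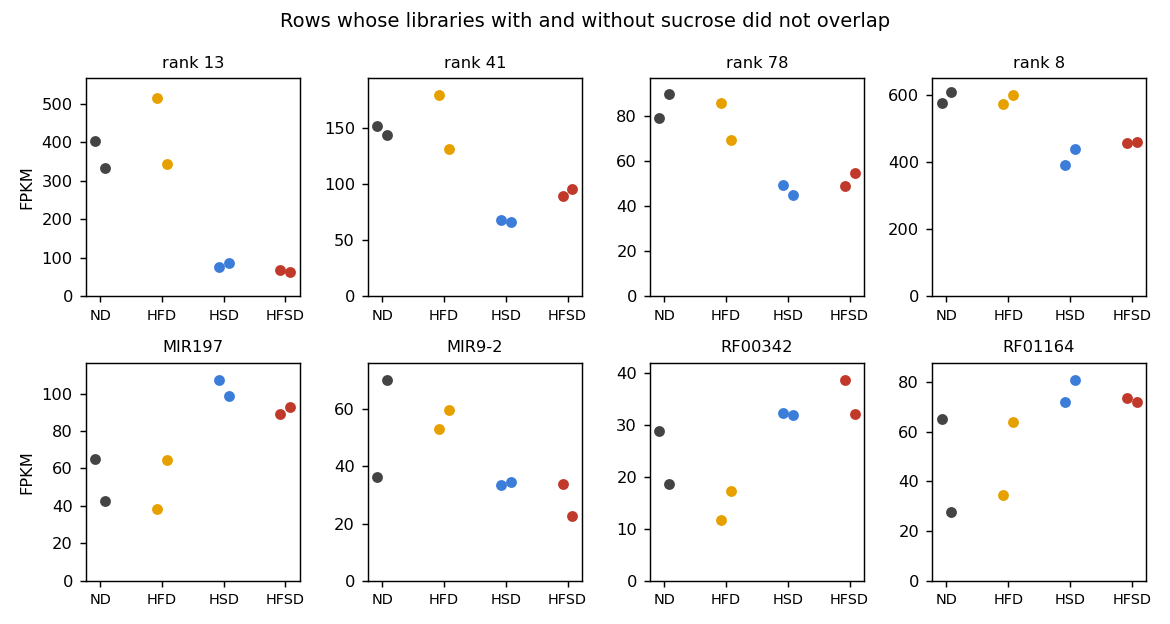
FPKM (vertical axes, starting at 0) in the 2 libraries of each diet (points) for 8 of the 26 rows whose 4 sucrose libraries (HSD, HFSD) did not overlap with the 4 others (ND, HFD). Rank 13 lies between 63.4 and 85.1 FPKM with sucrose and between 335 and 517 FPKM without, and only ranks 13 and 41 passed the adjusted threshold.

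Among the miRNAs, MIR197 was higher in every sucrose retina. It had 65.0 and 42.5 FPKM in the ND retinas, 38.3 and 64.3 in the HFD retinas, 107 and 98.8 in the HSD retinas, and 88.9 and 93.1 in the HFSD retinas, from 61 to 164 fragments. The log2 fold change was 0.91 (standard error 0.190, limma adjusted p=0.126). Within ND and within HFD the 2 retinas were further apart than within the sucrose diets, with the low values in ND replicate 2 and HFD replicate 1. Without these 2 libraries the log2 fold change was 0.57 (limma adjusted p=0.124).

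MIR9-2, a precursor of the miR-9 family known for its role in neural development, was lower in every sucrose retina. It had 36.4 and 70.1 FPKM with ND, 53.0 and 59.8 with HFD, 33.5 and 34.7 with HSD, and 33.8 and 22.6 with HFSD, with a log2 fold change of -0.78 (standard error 0.215, limma adjusted p=0.189). The gap between the groups is narrow, as ND replicate 1 at 36.4 FPKM (62 fragments) lay next to HSD replicate 2 at 34.7 FPKM (52 fragments).

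The other named miRNAs overlapped between diets. MIR29C, of a family known to target messages of matrix proteins, ranged from 31.4 to 64.1 FPKM. MIRLET7D, of the let-7 family that acts in developmental timing, ranged from 20.1 to 46.7 FPKM and MIR186 from 14.6 to 53.9 FPKM. Without ND replicate 2 and HFD replicate 1 the log2 fold change with sucrose was 0.69 for MIR29C, -0.14 for MIRLET7D and 0.15 for MIR186. Their lengths are those of hairpin precursors, so the values are not levels of the mature miRNAs, and fragments of a longer transcript over the same bases cannot be told apart from them.

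Of the 13 snoRNAs, 9 had a positive log2 fold change with sucrose and 5 had an unadjusted p under 0.05, all higher, where 16.4% of all rows had one. Without ND replicate 2 and HFD replicate 1, whose snoRNA sums of 498 and 470 FPKM were among the lowest, 7 of 13 were positive and 4 had an unadjusted p under 0.05, against 13.7% of all rows. RF00342 had 28.7 and 18.6 FPKM with ND, 11.7 and 17.3 with HFD, 32.1 and 31.8 with HSD, and 38.5 and 32.1 with HFSD, from 17 to 64 fragments. It was higher in all 4 sucrose retinas, by a log2 fold change of 0.85 (standard error 0.171, limma adjusted p=0.121), and by 0.57 without those 2 libraries. RF01164 had 64.9 and 27.5 FPKM in the ND retinas, 34.5 and 63.7 in the HFD retinas, 72.0 and 80.7 in the HSD retinas, and 73.5 and 71.9 in the HFSD retinas, a log2 fold change of 0.73 (standard error 0.288, limma adjusted p=0.280). The retinas without sucrose fell far apart for RF01164, with ND replicate 1 and HFD replicate 2 close to the sucrose retinas and ND replicate 2 and HFD replicate 1 well below. Without the latter 2 its log2 fold change was 0.21.

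RF00412 and RF00421 overlapped between the groups and had smaller changes with sucrose over all 8 libraries. Without ND replicate 2 and HFD replicate 1 this order did not hold. Their log2 fold changes were then 0.58 and 0.52, beside 0.57 for RF00342 and 0.21 for RF01164. RF00421 was highest in HFSD, at 73.6 and 51.3 FPKM against 37.2 and 27.1 in ND, a log2 fold change of 0.93 (standard error 0.218, limma adjusted p=0.421). In HFD it had 26.1 and 29.0 FPKM and in HSD 40.4 and 33.1 FPKM, so that both HFSD retinas lay above the other 6.

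The libraries with added fat (HFD and HFSD) were compared with those without (ND and HSD). No member was called with limma, against 0.00681% of all rows, and voom gave 0 as well. Only 4 members (2%) had an unadjusted p under 0.05, against 3.22% of all rows, and 1 (0.5%) did not overlap, against 1.36%. That row was RBM12, at 28.9 to 30.9 FPKM with fat and 31.6 to 32.9 FPKM without (log2 fold change -0.12, standard error 0.0695, limma adjusted p=0.9998), so that 0 members were higher and 1 lower, against 0.695% and 0.668% of all rows. The row with the lowest p was rank 40, a pseudogene row of 156 bases, with a log2 fold change of -1.08 (standard error 0.266, limma adjusted p=0.9998).

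The interaction, whether sucrose acted differently with fat than without, was called in no member with limma or voom and in 0% of all rows, and 13 members (6.5%) had an unadjusted p under 0.05 against 3.85%. Rank 40 had the lowest p here too. It had 105 and 72.4 FPKM with ND, 88.6 and 125 with HFD, 147 and 321 with HSD, and 35.2 and 43.9 with HFSD. Both HFSD retinas lay below all others, and HSD replicate 2, the library with muscle markers, was highest. The interaction was -2.71 on the log2 scale (standard error 0.531, limma adjusted p=0.9997). It was -2.14 without HSD replicate 2 and -3.27 without HSD replicate 1.

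The spread between the 2 retinas of a diet was measured as the absolute log2 difference of FPKM + 1. Its median over the members was 0.21 with ND, 0.33 with HFD, 0.16 with HSD and 0.15 with HFSD, and over all rows 0.21, 0.24, 0.16 and 0.14. In HFD the members were thus more spread than all rows, and ND replicate 2 with HFD replicate 1 formed the highest 2 libraries in 37 members (18.5%) against 10.7% of all rows.

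Short rows were the most spread in ND. There the median was 0.56 for snoRNAs, 0.76 for miRNAs and 1.65 for Mt_tRNAs, while in HSD it was 0.28, 0.11 and 0.14. Of the 200 rows, 133 with ND, 147 with HFD, 103 with HSD and 111 with HFSD differed between the 2 retinas by more than a 95% limit of counting error. These are 66.5%, 73.5%, 51.5% and 55.5%, beside 67.2%, 77.4%, 52.9% and 52.1% of the protein-coding rows at or above the lowest member. Of the 13 snoRNAs, 6 did with ND, 5 with HFD, 0 with HSD and 4 with HFSD. Of the 10 miRNAs, 7 did with ND, 6 with HFD, 1 with HSD and 3 with HFSD.

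**Figure D4:**
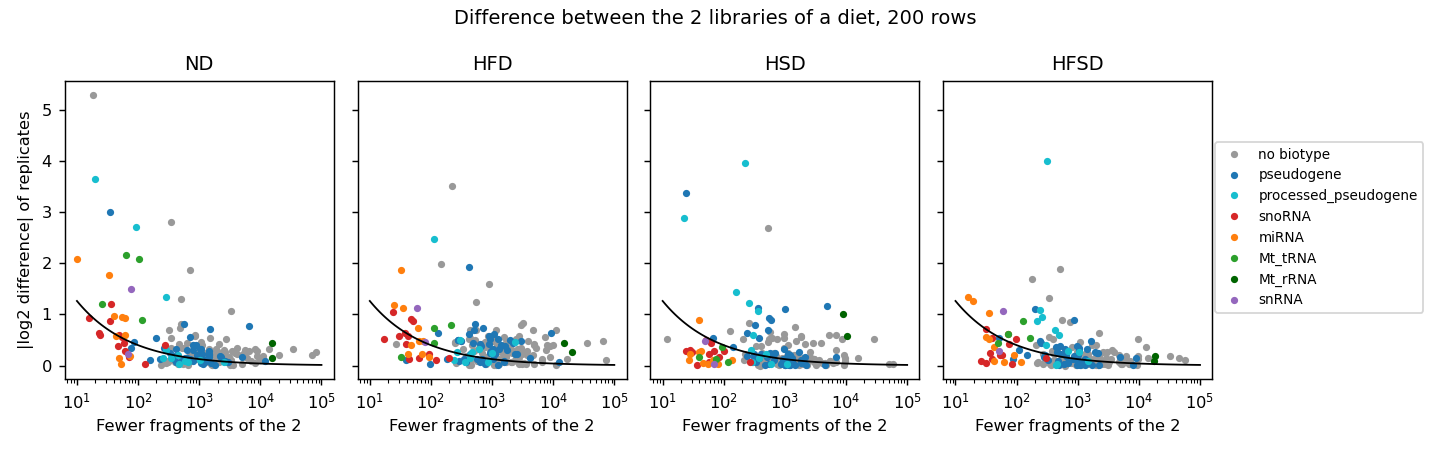
Absolute log2 difference between the 2 libraries of a diet (vertical axis) against the fewer fragments of the 2 (horizontal axis, log scale) for the 200 rows, in 1 panel per diet and coloured by biotype. The black line is the 95% limit of counting error for equal counts, and 103 to 147 rows per diet differed by more than their own limit.

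A few rows fell into 2 distant levels. A gap of at least 2 on the log2 scale, with at least 2 libraries on each side, was found in 5 members (2.5%), against 0.273% of all rows and 0.266% of protein-coding rows at or above the lowest member. This measure was chosen after the values were seen and is a description. In all 5 rows the low level, at most 16.8 FPKM, lay below the mean of 26.2 FPKM at rank 200. Their high libraries therefore put them among the 200, and the choice by mean bears on the share of 2.5%. The 5 rows were also those with the widest differences between retinas of a diet, from 3.38 to 5.30 on the log2 scale.

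Rank 65, a processed pseudogene row of 897 bases, had 236 FPKM in HSD replicate 1 and 262 FPKM in HFSD replicate 2. The other 6 libraries lay between 14.2 and 16.2 FPKM, so the high level was 14.5 times the highest low one or more. Its fewest fragments were 219, and each sucrose diet had 1 retina at each level.

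Rank 111 (pseudogene, 303 bases) had 59.2 and 6.52 FPKM with ND, 6.45 and 7.05 with HFD, 5.02 and 61.8 with HSD, and 126 and 123 with HFSD. ND and HSD were each split between the levels, and the HFSD retinas stood above the other high libraries. Rank 88 (no biotype, 1159 bases) had 124 and 16.8 FPKM in the ND retinas, 130 and 10.4 in the HFD retinas, 10.7 and 6.35 in the HSD retinas, and 96.9 and 89.5 in the HFSD retinas, with ND and HFD split.

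Rank 161 (processed pseudogene, 354 bases) was low in ND replicate 2 and HSD replicate 1, at 3.19 and 3.94 FPKM, and between 31.7 and 62.5 FPKM in the others. Rank 193 (no biotype, 625 bases) had 1.47 and 96.7 FPKM with ND, 2.16 and 3.24 with HFD, 2.03 and 1.11 with HSD, and 38.6 and 72.6 with HFSD. Its highest library was 86.9 times its lowest, the widest range among the 200 rows. No 2 of the 5 rows had the same libraries on the high side.

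**Figure D5:**
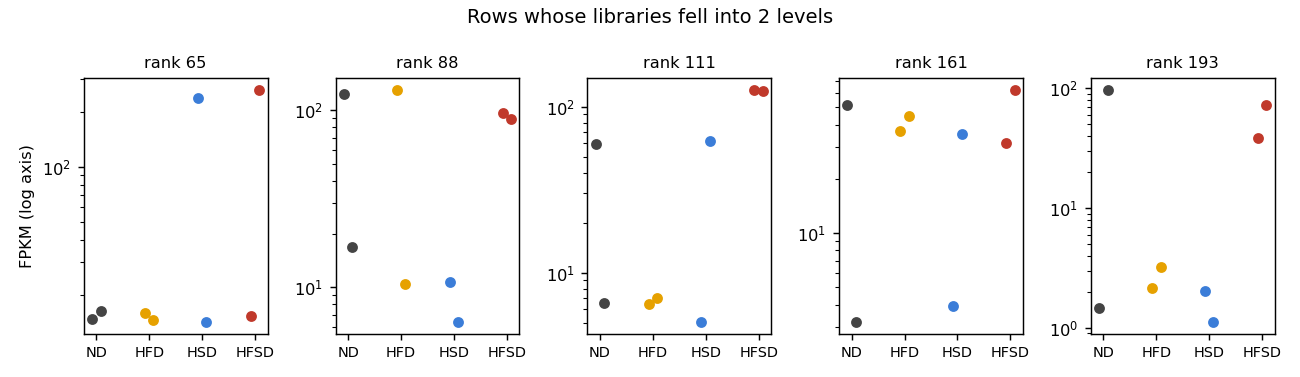
FPKM (vertical axes, log scale) in the 2 libraries of each diet (points) for the 5 rows with a gap of at least 2 on the log2 scale. Ranks 65, 88, 111 and 161 split both retinas of 2 diets between a low and a high level, and rank 193 splits ND only, from 1.47 to 96.7 FPKM.

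Reads that mapped to several places were discarded before FPKM was computed, so that levels of pseudogenes, of snRNAs and of other rows with near-identical copies are uncertain. How many reads this took from any row was not measured. The symbol RF00004 of an snRNA row is carried by 121 rows of the table and RF00066 by 9. RF00066 ranged from 52.1 to 96.9 FPKM and RF00004 from 23.6 to 91.8 FPKM, with 91.8 FPKM in ND replicate 2 against 32.0 in ND replicate 1.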

How the data were processed

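Retinal RNA of 8 libraries was measured (TRIzol, DNase, TruSeq RNA kit, HiSeq). The authors checked reads with FastQC, trimmed them, mapped them with TopHat2 allowing 2 mismatches, discarded reads mapping to several places and computed the deposited FPKM values with an R script. The genome build, annotation and strand setting are not given in the sources used here, so no coordinates or sequences are printed. Each value column belonged to a sample.

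The values of a library are whole multiples of 1 fragment. Depths, row lengths and fragments were recovered from these steps (tolerance 0.02), and 100% of values above 0 came out whole. Which total the depth is was not determined.

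Samples were grouped by the diet in the labels. Limma (version 3.58.1, R 4.3.3) was fitted to log2(FPKM + 1) with a mean-variance trend and 1 mean per diet, over the 14676 rows that reached 1 FPKM in 2 or more libraries, with Benjamini-Hochberg adjustment and calls at an adjusted p under 0.05. Diets against ND, sucrose, fat and their interaction gave 6 comparisons. Biotype sums were tested by a two-sided exact permutation test on the log2 scale. The limma and recovery steps were tested on simulated data. The members and lists were chosen with earlier results of these data known.

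Rows named are the 3 highest of each biotype, those called (at most 10 per comparison), otherwise the 5 with the lowest p, the 5 widest between replicates, those at the limit and those on lists of known RNAs. Other rows named by symbol, and the rows drawn in the plot by sucrose, were chosen after their values were seen. Alternatives varied the pseudocount (0.1, 10), the filter (none, 10 FPKM), the scaling, the block, the libraries, the ranking (by median, or 100 members) and the test (voom on recovered fragments).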

Additional observations from a re-analysis of the deposited data

How the results depend on the processing

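With no filter on low values, with the replicate block, with voom and with only the 4 libraries compared, the count of members called in HSD went from 1 to 0. For HFSD it went from 1 to 0 with no filter and with only the 4 libraries compared. For sucrose it went from 2 to 1 with no filter, with the replicate block, with voom and without both ND replicate 2 and HFD replicate 1, a choice made after seeing the data. Leaving out 1 library at a time gave 0 to 2 members in HSD, 0 to 1 in HFSD, 1 to 2 for sucrose and 0 to 1 for the interaction. Without ND replicate 1, rank 193 was called for the interaction (adjusted p=0.0162 with limma) and, in place of rank 13, in HSD (adjusted p=0.0315). Both calls then rest on ND replicate 2 as the only ND library, which is also 1 of the 3 libraries whose high values put this row among the 200. Without HFD replicate 1, rank 41 was also called in HSD (adjusted p=0.04995). A lone library is then assumed to vary like the other diets. Same-numbered replicates were not paired: their differences correlated between -0.10 and 0.07 over 14676 rows. The biotype sums gave no call under any alternative, but the smallest p was 0.0095 over 105 assignments and 0.0417 over the 24 of the replicate block, so that this says little about their stability. Pseudogenes without HSD replicate 1 were at the smallest p (adjusted p=0.0571). None of the 30 log2 fold changes of named rows was reversed under any alternative. These were picked for their low p in the same data. A reversal was thus unlikely from the start, and its absence says little about their stability.

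Over all rows the sucrose count of 30 ranged from 4 to 34 when 1 library was left out. It was 5 with no filter, 19 with the block, 12 with voom, 19 with equal summed FPKM and 19 with a minimum of 10 FPKM. Rows in 2 levels numbered 5 at a gap of 2, 8 at a gap of 1 and 2 at a gap of 3. Means of 2 retinas lean on each of them, and the few fragments of miRNAs and snoRNAs limit what can be seen in them. The cause of these differences between settings was not tested.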
